A study of Mus musculus with 24 samples.

Results

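The genes described here encode the core of the G1/S control point: the D-type cyclins Ccnd2 and Ccnd3, the cyclin-dependent kinases Cdk2, Cdk4 and Cdk6, the kinase inhibitors Cdkn1b, Cdkn2c and Cdkn2d, and the pocket proteins Rb1 and Rbl1. The 10 were chosen by symbol, and each symbol matched 1 row of the 14106 genes in the count table. The study removed Spt5, a subunit of the elongation factor DSIF, from mouse splenic B cells, and the comparison shows how the mRNA of these genes differed afterwards. Cultures received IL4 and LPS for 28 h, then 2 µM 4-hydroxytamoxifen as well for 32 h, 60 h in total, and poly(A) RNA was sequenced from 3 libraries per group. WT cells were Rosa26ERT2-cre/+ and Spt5-depleted cells were Supt5hFl/- Rosa26ERT2-cre/+, so both groups carried the Cre recombinase and received the drug. The control carried no null Supt5h allele, and the effect of that allele cannot be told apart from that of the induced deletion. No label ties a library to its own mouse or culture, so p-values measure the spread between libraries, which may be technical.

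In cycling cells, D-type cyclins bind CDK4 and CDK6, and the active kinases phosphorylate the pocket proteins RB and p107, which then release E2F transcription factors. E2F switches on genes for DNA replication, and cyclin E with CDK2 completes the step into S phase. INK4 proteins, such as the products of Cdkn2c and Cdkn2d, bind CDK4 and CDK6 and keep D-type cyclins away, while p27, the product of Cdkn1b, binds assembled cyclin-CDK complexes. In B cells mitogens raise cyclin D2 as resting cells enter the cycle, and p27 holds resting lymphocytes out of it.

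The libraries held 17306549 to 25649611 counts, and all 3 Spt5-depleted libraries were smaller than all 3 WT libraries. Supt5, the targeted gene, had 3512 to 4666 counts in WT and 189 to 314 in Spt5-depleted libraries (log2 fold change -3.94 ± 0.14 SE, edgeR adjusted p = 1.26e-10). Xist RNA stood at 468 to 915 CPM in WT and at 1.00 to 1.73 CPM in Spt5-depleted libraries, and the summed counts of 4 Y-linked genes at 1 to 3 and at 2301 to 3429. Each difference below is thus also a difference between libraries with Xist and libraries with Y-linked RNA, which cannot be told apart here. B cell markers (8 genes, 0 higher and 3 lower) summed to 5830 to 5900 CPM in WT and 4610 to 5270 CPM in Spt5-depleted libraries. Of 7 macrophage and monocyte markers in the table, 3 of 5 tested rose, and their sum was 20.1 to 26.8 CPM in WT and 22.8 to 49.5 CPM in Spt5-depleted libraries. Of 3 tested dendritic cell markers Xcr1 rose from 0.88 ± 0.16 to 5.98 ± 0.45 CPM and Zbtb46 from 5.22 ± 0.22 to 8.22 ± 1.42 CPM (SD, n = 3 per group; adjusted p = 6.45e-08 and 0.00201), and the sum of 4 was 85.4 to 99.7 CPM in WT and 95.8 to 97.5 CPM in Spt5-depleted libraries. Of 4 tested NK cell markers Eomes rose and Gzma fell (log2 fold changes 1.00 and -0.95, adjusted p = 0.0238 and 0.00255; sums 12.0 to 18.7 and 7.75 to 13.0 CPM). Of 3 megakaryocyte and platelet markers in the table only 1 was tested, Pf4, which rose from 0.83 ± 0.22 to 1.48 ± 0.42 CPM (adjusted p = 0.0307). The sums of the 3 overlapped between the groups, at 0.842 to 1.52 CPM in WT and 1.38 to 2.15 CPM in Spt5-depleted libraries. T cell markers (9 genes, 0 called) summed to 184 to 211 CPM and 161 to 186 CPM, most of it Thy1, and none of the markers in the table was at 0 in every library. The part of other cells in the results was not tested, and in bulk RNA fewer cells of a type and less RNA per cell cannot be told apart.

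Of the 10 genes, 6 rose, 2 fell and 2 were not called at an adjusted p under 0.05 (edgeR's quasi-likelihood test, Benjamini-Hochberg over all 12024 tested genes). The D-type cyclins Ccnd2 and Ccnd3 fell, and the inhibitors Cdkn1b and Cdkn2c and the pocket proteins Rb1 and Rbl1 rose. The kinases divided, with Cdk6 and Cdk2 higher and Cdk4 not called. Of all tested genes 62.4% were called, 31.8% as higher and 30.6% as lower, so calls were common whatever the gene. For 8 of the 10 genes the 3 Spt5-depleted values lay wholly on one side of the 3 WT values, 6 above and 2 below. This held for 67.5% of all tested genes, 34.2% above and 33.3% below. The median log2 fold change was 0.30 over the 10 genes and 0.0047 over all tested genes. Among the 10 fold changes, that of Cdk6 alone was above a factor of 2. In the authors' deposited table, 10 of 10 genes had the same sign as here and 10 of 10 the same side of 0.05. Those values come from the same libraries, so this is not independent support.

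**Figure D1:**
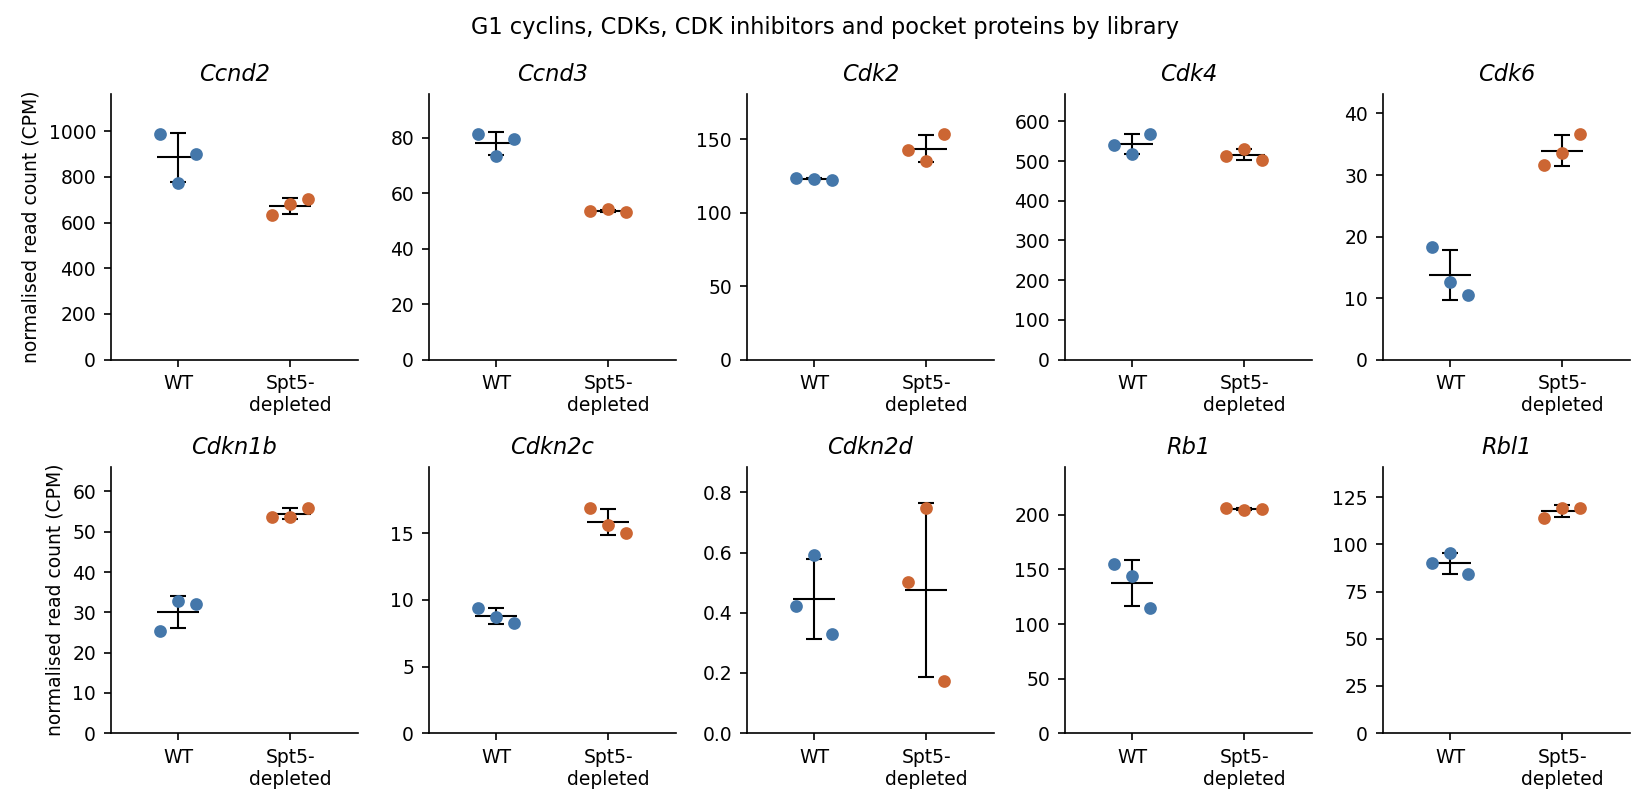
Normalised read count (CPM, linear axis from 0, one scale per gene) of the 10 genes in each library; points are libraries, bars the mean and SD of 3 libraries. The groups are apart for 8 genes and overlap for Cdk4 and Cdkn2d.

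Both D-type cyclins among the 10 genes were lower in Spt5-depleted cells. Ccnd2, the cyclin that mitogens induce in B cells, had 988, 773 and 899 CPM in WT and 632, 682 and 702 CPM in Spt5-depleted libraries. The lowest WT library stood above the highest Spt5-depleted library, and WT values ranged over 214 CPM against 69.4 CPM. Its mean fell from 886.5 ± 107.7 to 671.8 ± 35.8 CPM (SD, n = 3 per group; log2 fold change -0.40 ± 0.10 SE, adjusted p = 0.00258), a level 1.32-fold lower. With library totals alone the value was -0.24 (adjusted p = 0.046; 0.000195 to 0.046 over all alternatives). Among all tested genes this change lay at percentile 26.3, inside the bulk of the table. Ccnd2 and Cdk4 are among 578 tested genes above 300 CPM, of which 293 were lower and 117 higher, with a median change of -0.25 (log2).

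Ccnd3, which partners the same kinases and is needed for expansion of pre-B and germinal centre B cells, had 81.4, 73.4 and 79.5 CPM in WT and 53.5, 54.2 and 53.4 CPM in Spt5-depleted libraries. The Spt5-depleted values lay within 0.88 CPM of each other, below each WT value. Its mean fell from 78.1 ± 4.18 to 53.7 ± 0.48 CPM (SD, n = 3 per group), 1.46-fold lower (log2 fold change -0.54 ± 0.08 SE, adjusted p = 6.09e-05). In the table the name Ccnd3 has a suffix that may stand for a gene overlap, so a neighbour's reads may be included. Ccnd1, the third D-type cyclin, rose from 1.05 ± 0.15 to 3.47 ± 0.41 CPM (SD, n = 3 per group; log2 fold change 1.72 ± 0.23 SE, adjusted p = 1.46e-05).

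The kinases did not move as a group. Cdk6 had the largest change of the 10 genes, with 18.4, 12.6 and 10.5 CPM in WT and 31.7, 33.6 and 36.6 CPM in Spt5-depleted libraries. The groups were far apart although the WT libraries ranged over 7.86 CPM. Its mean rose 2.46-fold, from 13.8 ± 4.07 to 34.0 ± 2.49 CPM (SD, n = 3 per group; log2 fold change 1.30 ± 0.17 SE, 95% interval 0.92 to 1.67, adjusted p = 4.64e-05). This put Cdk6 at percentile 93.3 of all tested genes.

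Cdk4, which binds the same D-type cyclins as Cdk6, had 541, 518.5 and 568 CPM in WT and 513, 531 and 503 CPM in Spt5-depleted libraries. The groups overlapped. Its means were 542 ± 24.6 and 516 ± 14.4 CPM (SD, n = 3 per group; log2 fold change -0.07 ± 0.08 SE, adjusted p = 0.455). The 95% interval, -0.25 to 0.10, leaves out the estimate for Ccnd2, -0.40, but overlaps the interval of Ccnd2, -0.61 to -0.19. The difference between the 2 genes was not tested. With library totals alone as the scaling, the sign turned and the value was 0.086 (adjusted p = 0.362; 0.312 to 0.67 over all alternatives).

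Cdk2, the partner of cyclins E and A, had 124, 123 and 122.5 CPM in WT and 142, 135 and 153 CPM in Spt5-depleted libraries. Each Spt5-depleted library was above each WT library. Its mean rose from 123.1 ± 0.57 to 143.6 ± 9.28 CPM (SD, n = 3 per group; log2 fold change 0.22 ± 0.08 SE, adjusted p = 0.0304), the smallest change among the called genes. The call was lost when WT replicate 2 (0.22, adjusted p = 0.0644), Spt5-depleted replicate 1 (0.23, adjusted p = 0.0747) or Spt5-depleted replicate 3 (0.18, adjusted p = 0.118) was left out, and over all alternatives the adjusted p ran from 0.00133 to 0.118.

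Promoter windows of 8 of the 10 genes were matched in RefSeq (GRCm38.p6; the counts were made with mm9). The 250 bases before each annotated start were searched on both strands for the E2F motif (TTTGGCGC, TTTCCCGC, TTTCGCGC or TTTGCCGC) and for the E-box CACGTG, which MYC and its partners bind. Among 32851 RefSeq promoter windows of the same length, 1.86% held the E2F motif and 6.02% the E-box. The windows of the 3 kinases are shown, since these genes bind the same cyclins or inhibitors and moved differently; capitals mark the motifs. Cdk2 lies at chr10:128705052-128705301 on the minus strand and holds 1 E2F motif, Cdk4 at chr10:127063285-127063534 on the plus strand with 4 E-boxes, and Cdk6 at chr5:3343643-3343892 on the plus strand with 1 E-box.
Cdk2: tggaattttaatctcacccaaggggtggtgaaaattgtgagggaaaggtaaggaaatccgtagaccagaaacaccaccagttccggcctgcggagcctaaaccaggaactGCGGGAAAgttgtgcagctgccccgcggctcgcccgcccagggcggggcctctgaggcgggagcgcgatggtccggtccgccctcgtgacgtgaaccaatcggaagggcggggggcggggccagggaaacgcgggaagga
Cdk4: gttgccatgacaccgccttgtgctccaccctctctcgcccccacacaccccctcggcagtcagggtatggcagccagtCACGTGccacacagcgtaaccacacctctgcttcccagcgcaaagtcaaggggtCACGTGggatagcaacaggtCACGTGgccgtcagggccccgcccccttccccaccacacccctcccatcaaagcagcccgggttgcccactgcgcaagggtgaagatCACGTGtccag
Cdk6: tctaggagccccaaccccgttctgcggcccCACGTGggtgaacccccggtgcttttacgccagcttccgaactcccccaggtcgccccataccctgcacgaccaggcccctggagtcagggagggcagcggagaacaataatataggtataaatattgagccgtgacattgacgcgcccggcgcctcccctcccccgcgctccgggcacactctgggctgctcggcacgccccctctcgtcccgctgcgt
The 4 E-boxes of Cdk4 begin 172, 118, 98 and 11 bases before the start, and that of Cdk6 begins 220 bases before it. Myc, a member of the list of upstream regulators chosen here after its values were seen, rose from 395 ± 28.1 to 513 ± 16.8 CPM (SD, n = 3 per group; adjusted p = 0.0014). A match describes letters in the window; binding was not measured here.

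Of the 3 CDK inhibitors, 2 rose by nearly the same factor and the third had few counts. Cdkn1b, which encodes p27, had 25.4, 32.9 and 32.0 CPM in WT and 53.6, 53.7 and 56.0 CPM in Spt5-depleted libraries. The Spt5-depleted libraries were tightly grouped and all above the WT libraries. Its mean rose 1.81-fold, from 30.1 ± 4.08 to 54.5 ± 1.33 CPM (SD, n = 3 per group; log2 fold change 0.86 ± 0.10 SE, adjusted p = 6.05e-06), at percentile 87.3 of all tested genes.

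Cdkn2c, which encodes the INK4 protein p18 and restrains the cycling of activated B cells as they become plasma cells, had 9.39, 8.72 and 8.23 CPM in WT and 16.9, 15.6 and 15.02 CPM in Spt5-depleted libraries. The groups were apart by more than the range within either. Its mean rose 1.80-fold, from 8.78 ± 0.58 to 15.9 ± 0.97 CPM (SD, n = 3 per group; log2 fold change 0.85 ± 0.12 SE, adjusted p = 1.98e-05). These levels rest on 192 to 347 counts per library.

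Cdkn2d, the INK4 gene for p19, had 10, 13 and 8 counts in WT and 9, 16 and 4 counts in Spt5-depleted libraries, or 0.45 ± 0.13 and 0.48 ± 0.29 CPM (SD, n = 3 per group). The groups overlapped throughout. The log2 fold change was 0.07 (± 0.49 SE, adjusted p = 0.905), and its 95% interval ran from -0.98 to 1.13, so a rise as large as that of Cdkn2c was not detectable at these counts. The value was -0.11 without WT replicate 3 and -0.46 without Spt5-depleted replicate 2. Its row carries a suffix that may mark a duplicated gene model, and whether reads were lost there was not tested.

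Other inhibitors of these kinases differed in direction. Cdkn1a, which encodes p21, rose from 69.3 ± 5.03 to 96.7 ± 3.10 CPM (SD, n = 3 per group; log2 fold change 0.48 ± 0.09 SE, adjusted p = 0.000221). Cdkn2a, the locus of p16 and of the p53 activator ARF, fell from 11.1 ± 2.75 to 6.90 ± 0.27 CPM (SD, n = 3 per group; log2 fold change -0.68 ± 0.17 SE, adjusted p = 0.00286), and these counts do not separate its 2 products. Of the INK4 and Cip/Kip genes, Cdkn1c had 2 to 11 counts per library and was not tested. Cdkn2b had 5.09 ± 0.47 and 5.95 ± 0.47 CPM (SD, n = 3 per group; adjusted p = 0.22); it and Cdkn1c were chosen here after their values were seen.

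Both pocket proteins among the 10 genes rose. Rb1, which encodes the retinoblastoma protein, had 155, 144 and 114.5 CPM in WT and 207, 204 and 205 CPM in Spt5-depleted libraries. The Spt5-depleted libraries lay within 2.62 CPM of each other while the WT libraries ranged over 40.5 CPM, and the groups did not overlap. Its mean rose 1.49-fold, from 138 ± 20.9 to 205 ± 1.31 CPM (SD, n = 3 per group; log2 fold change 0.57 ± 0.10 SE, adjusted p = 0.000214).

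Rbl1, which encodes p107 and is itself a classical E2F target, had 90.2, 95.5 and 84.2 CPM in WT and 114, 119.5 and 119 CPM in Spt5-depleted libraries. All Spt5-depleted values were above all WT values. Its mean rose 1.31-fold, from 90.0 ± 5.62 to 118 ± 3.06 CPM (SD, n = 3 per group; log2 fold change 0.39 ± 0.08 SE, adjusted p = 0.00104). Rbl2, the gene for the related p130, had 63.6 ± 9.51 and 67.7 ± 2.32 CPM (SD, n = 3 per group; log2 fold change 0.09 ± 0.10 SE, adjusted p = 0.469), and its sign turned without WT replicate 3 (-0.028). Its row carries the overlap suffix. The promoter window of Rbl1, at chr2:157204535-157204784 on the minus strand, holds 1 E2F motif that begins 18 bases before the start and is shown in capitals.
Rbl1: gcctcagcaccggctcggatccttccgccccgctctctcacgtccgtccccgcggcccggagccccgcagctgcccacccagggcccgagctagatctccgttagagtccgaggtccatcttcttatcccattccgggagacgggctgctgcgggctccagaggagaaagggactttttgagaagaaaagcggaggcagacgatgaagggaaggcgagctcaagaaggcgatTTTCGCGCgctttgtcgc
Cdk2 and Rbl1 are the 2 genes of the 8 whose windows hold the E2F motif, and both rose. Of the genes whose windows do not hold it, Cdk6, Cdkn1b and Cdkn2c rose, Ccnd3 fell, and Cdk4 and Cdkn2d were not called. Whether the motif bears on these changes was not tested.

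**Figure D2:**
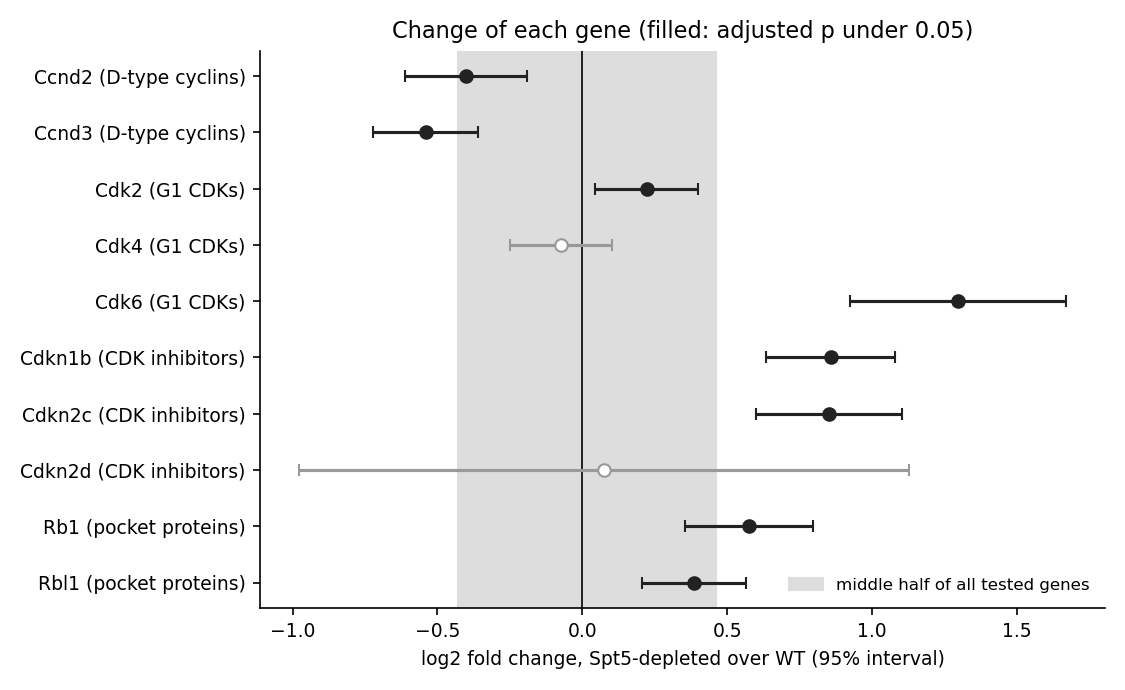
Log2 fold change (Spt5-depleted over WT) of each gene with its 95% interval; filled points passed an adjusted p of 0.05, and the grey band spans percentiles 25 to 75 of all tested genes, -0.43 to 0.46. Cdk6, Cdkn1b, Cdkn2c and Rb1 lie above the band and Ccnd3 below it.

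Ratios of counts within a library do not depend on how libraries are scaled, and 5 pairs were compared. A ratio of counts also reflects transcript lengths, so only its difference between groups is read. The log2 ratio of Cdk4 to Cdk6 was 4.88, 5.36 and 5.75 in WT and 4.01, 3.98 and 3.78 in Spt5-depleted libraries. All 3 Spt5-depleted ratios were below all WT ratios, and the mean ratio was 2.65-fold lower (difference -1.40 ± 0.26 SE; two-sided exact permutation p = 0.1, adjusted p = 0.25 over 5 pairs). The smallest p that 3 against 3 libraries allow is 0.1, so no pair could pass a threshold of 0.05.

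The log2 ratio of Cdkn1b to Cdk2, an inhibitor and a kinase it binds, was -2.28, -1.91 and -1.94 in WT and -1.41, -1.33 and -1.45 in Spt5-depleted libraries. The groups did not overlap, and the mean ratio was 1.56-fold higher (difference 0.65 ± 0.13 SE, exact permutation p = 0.1, adjusted p = 0.25). For the other 3 pairs the groups overlapped. The difference was -0.14 ± 0.07 SE for Ccnd3 to Ccnd2, 0.20 ± 0.10 SE for Rb1 to Rbl1 and -0.93 ± 0.61 SE for Cdkn2d to Cdkn2c (exact permutation p = 0.2, 0.2 and 0.3, adjusted p = 0.25, 0.25 and 0.3). Single libraries moved these differences: that of Ccnd3 to Ccnd2 was -0.094 without WT replicate 2, that of Rb1 to Rbl1 0.12 without WT replicate 3, and that of Cdkn2d to Cdkn2c -0.40 without Spt5-depleted replicate 3. These differences were smaller than the spread of the libraries allows to be resolved, so whether one D-type cyclin fell further than the other, or one pocket protein rose further, is not settled here.

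**Figure D3:**
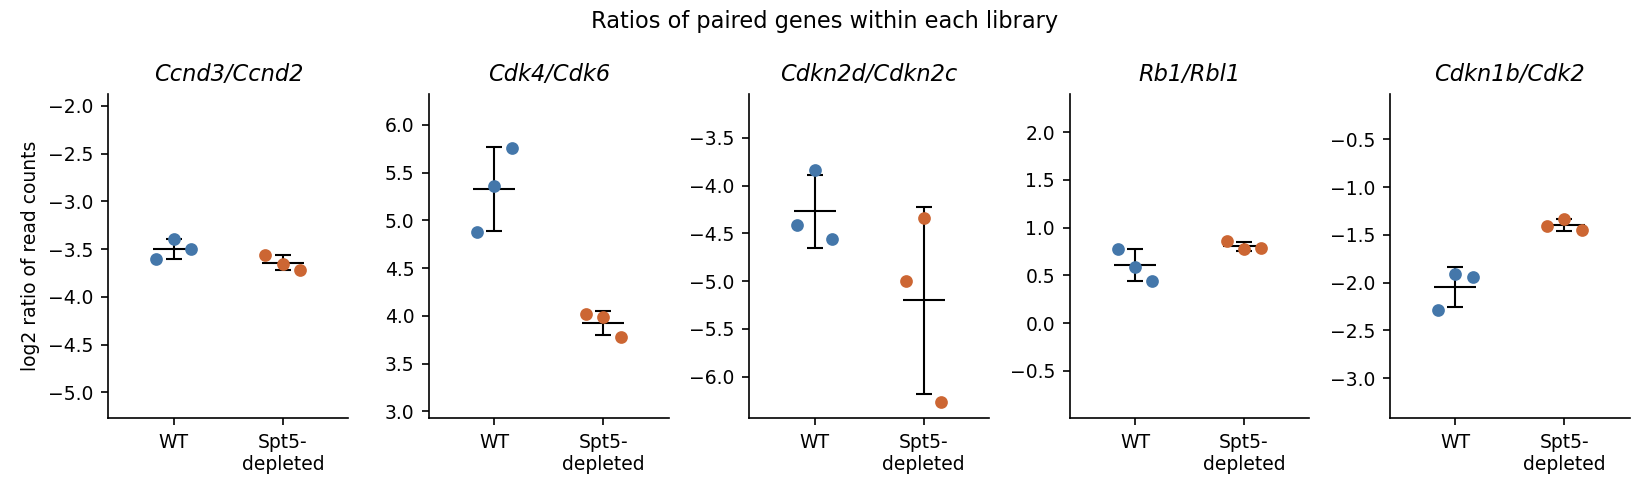
Log2 ratio of the read counts of paired genes in each library (points), with mean and SD of 3 libraries; each panel spans the same range of log2 units around its own centre. The groups are apart for Cdk4/Cdk6 and Cdkn1b/Cdk2 and overlap for the other 3 pairs.

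Of 29 tested partners that act beside these 10 genes at the G1/S step (30 listed), 8 rose and 10 fell, with a median log2 fold change of 0.08. Over all tested genes 31.8% rose and 30.6% fell, so these counts are near the background. The median was 0.015 without WT replicate 3 and 0.041 without Spt5-depleted replicate 1, and 5 partners rose and 9 fell without Spt5-depleted replicate 3. With library totals alone as the scaling, 15 were higher and 8 lower, while over all genes 64.8% of calls were then higher, against 50.9% here, and the median of all genes moved from 0.0047 to 0.164. E2f7, a repressor among the E2F factors, rose from 15.2 ± 1.29 to 28.5 ± 3.89 CPM (SD, n = 3 per group; adjusted p = 1.21e-05). E2f1, an activator, had 17.7 ± 0.56 and 20.0 ± 2.38 CPM (adjusted p = 0.185). It passed with library totals alone (log2 fold change 0.34, adjusted p = 0.0192, and 0.0192 to 0.507 over all alternatives). E2f2 and E2f3 rose (log2 fold changes 0.28 and 0.30, adjusted p = 0.0229 and 0.0153), and E2f5, E2f6 and E2f8 were not called. These E2f genes other than E2f1 were chosen after their values were seen. E2f4, which works with Rbl1 and Rbl2 as a repressor, fell from 179 ± 14.5 to 116 ± 6.05 CPM (SD, n = 3 per group; log2 fold change -0.62 ± 0.09 SE, adjusted p = 2.75e-05).

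The cyclins that bind Cdk2 also divided. Ccna2, a cyclin A gene, fell from 484 ± 15.05 to 393 ± 9.45 CPM (SD, n = 3 per group, adjusted p = 0.00447). It was chosen after its values were seen, and its row carries the overlap suffix. Ccne1 fell from 64.8 ± 7.27 to 48.8 ± 1.63 CPM and Ccne2 rose from 22.03 ± 2.85 to 28.2 ± 1.69 CPM (SD, n = 3 per group; log2 fold changes -0.41 ± 0.10 and 0.35 ± 0.11 SE, adjusted p = 0.00185 and 0.0123). With library totals alone the fall of Ccne1 was -0.25 (adjusted p = 0.0383; 0.000379 to 0.0383 over all alternatives). The rise of Ccne2 was not called when Spt5-depleted replicate 3 was left out (adjusted p = 0.057; 0.0011 to 0.057 over all alternatives), and its row carries the overlap suffix. Cdc25a, the phosphatase that activates Cdk2, fell from 112.5 ± 9.99 to 79.1 ± 3.67 CPM (SD, n = 3 per group; adjusted p = 0.000203). Fbxw7, which recognises cyclin E for degradation, fell from 44.9 ± 3.16 to 25.6 ± 2.81 CPM (SD, n = 3 per group; adjusted p = 9.55e-06). Their rows carry the overlap suffix. Of the CDK-activating kinase, which phosphorylates the T-loop of these CDKs, Ccnh and Mnat1 fell (log2 fold changes -0.46 and -0.54, adjusted p = 0.000433 and 0.000432) and Cdk7 was not called (0.05, adjusted p = 0.623); these 3 were chosen after their values were seen.

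The E2F target genes listed here, mostly replication genes, were lower as a rule. The list was chosen with earlier results of these data known. It leaves out Rbl1, an E2F target that rose, and the E2f genes, which were counted among the partners. Of 30 tested genes 23 fell and 2 rose, with a median log2 fold change of -0.43, beside 30.6% lower and a median of 0.0047 over all genes; with library totals alone 20 fell and 2 rose. Rrm2, a ribonucleotide reductase subunit, fell from 657 ± 21.9 to 279 ± 7.37 CPM, and the thymidylate synthase gene Tyms from 247 ± 17.5 to 138 ± 6.20 CPM (SD, n = 3 per group; adjusted p = 1.29e-08 and 1.15e-06). Mcm5, of the replicative helicase, had a log2 fold change of -0.79 ± 0.08 SE. Rrm2, Pcna, Rrm1, Mcm3, Mcm4, Mcm6 and Ccna2 averaged above 300 CPM, where the median change of all tested genes was -0.25 (log2). The 2 that rose were Tk1 (0.44 ± 0.10 SE) and Ccne2, and both rows carry the overlap suffix. Cdk2 and Rbl1 thus rose in the libraries in which most of the listed E2F targets fell.

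The DREAM complex joins Rbl1 or Rbl2, E2f4 or E2f5 and the MuvB core to silence cell cycle genes in resting cells. The list made for it here has 12 genes. It includes Mybl2 and Dyrk1a beside the parts just named, and it leaves out Rbl1, which rose. Of these 12 genes 1 rose and 2 fell, beside 31.8% and 30.6% over all tested genes. Their median log2 fold change was -0.09, and -0.053 without WT replicate 3. Dyrk1a, the kinase that promotes assembly of the complex, was at 0.23, Tfdp1 at -0.29 and E2f4 as above. Without Spt5-depleted replicate 1 or replicate 3, E2f4 was the 1 gene called, and Dyrk1a was not called when WT replicate 2, WT replicate 3 or any 1 of the 3 Spt5-depleted replicates was left out (adjusted p = 0.0713 to 0.18). With library totals alone 3 of the 12 rose and 1 fell, with a median of 0.07. The MuvB subunits Lin9, Lin37, Lin52 and Lin54 were not called (log2 fold changes 0.11, -0.17, -0.25 and 0.20); they were chosen after their values were seen.

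The listed regulators of these genes or of the exit from the cycle were more often higher. This list was chosen with earlier results of these data known, so its share of rises is not independent support. It also mixes Myc with antiproliferative genes, so the count gives no direction for the cycle. Of 20 tested genes 11 rose and 3 fell (median log2 fold change 0.32), beside 31.8% higher over all genes. Foxo4, of the FOXO factors that can raise Cdkn1b transcription, rose from 8.72 ± 0.27 to 26.2 ± 1.67 CPM (SD, n = 3 per group; log2 fold change 1.59 ± 0.11 SE, adjusted p = 1.74e-08). Foxo1 and Foxo3, chosen after their values were seen, rose by 0.54 ± 0.09 and 0.95 ± 0.12 (SE, log2; adjusted p = 7.28e-05 and 5.15e-06). The antiproliferative genes Btg2 and Tob1 rose from 41.0 ± 5.64 to 153.5 ± 7.93 CPM and from 17.1 ± 1.84 to 51.5 ± 6.82 CPM (SD, n = 3 per group; log2 fold changes 1.91 and 1.59, adjusted p = 2.01e-09 and 3.67e-08). The MYC antagonist Mxi1 and the quiescence factor Klf2 fell (log2 fold changes -1.14 ± 0.12 and -0.78 ± 0.10 SE, adjusted p = 1.57e-06 and 9.7e-06). Hdac2, a deacetylase that pocket proteins recruit, was lower by a small amount (-0.22, adjusted p = 0.0356) and was not called with library totals alone (-0.06, adjusted p = 0.561) or when WT replicate 3 (adjusted p = 0.0542), Spt5-depleted replicate 1 (0.155) or Spt5-depleted replicate 3 (0.0951) was left out (adjusted p 0.0321 to 0.561 over all alternatives).

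**Figure D4:**
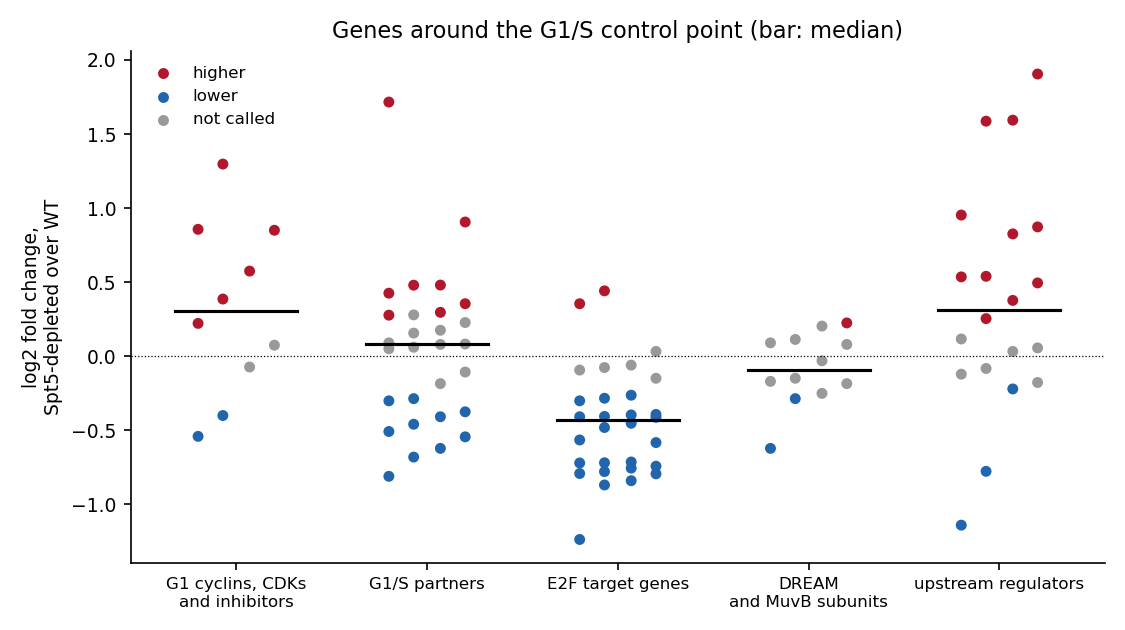
Log2 fold change (Spt5-depleted over WT) of each tested gene in the 10 genes and in 4 lists around them; red and blue points passed an adjusted p of 0.05, and bars are medians. The listed E2F targets lie mostly below 0, with 23 of 30 lower. The listed upstream regulators lie mostly above 0, with 11 of 20 higher.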

How the data were processed

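Counts per gene were analysed for 6 poly(A) RNA-seq libraries, 3 WT and 3 Spt5-depleted; 18 samples of other assays were not analysed here. Per the labels' protocols, RNA was extracted with Trizol and libraries made with a Lexogen SENSE kit. The deposited table gives raw read counts per gene; per the submitters' processing notes, reads were handled with featureCounts 1.5.0-p1, TopHat, Bowtie2 2.1.0 and cutadapt 1.10, against mm9, with DESeq2 1.10.1. The sources used here do not say how strand or multi-mapped reads were treated. The authors' deposited log2 fold change and the authors' deposited adjusted p-value were used where named. The table lists genes with at least 10 counts in all; 2005 row names carry an overlap suffix and 19 a duplicate suffix, whose meaning is not given.

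Counts were filtered with filterByExpr (12024 genes tested, the 10 genes described among them), scaled by TMM and tested with edgeR 4.0.16 in R 4.3.3 (quasi-likelihood, robust, two-sided, Benjamini-Hochberg over all tested genes, threshold 0.05). CPM use TMM library sizes, SE comes from the F statistic, and 95% intervals from the moderated t distribution. TMM takes most genes as unchanged, while 62.4% were called; no spike-in was named. Ratios used counts with 0.5 added and an exact permutation test. Libraries of 1 group were never as alike as counting noise alone allows. The chi-square per degree of freedom was 27.6 to 32.5 between WT libraries and 6.36 to 10.7 between Spt5-depleted libraries. Scripts were tested on simulated data. Alternatives were other scalings, filters, DESeq2 1.42.0, limma 3.58.1, a stricter adjusted p (0.01), the replicate number as a block, and each library left out in turn. Genes and lists were chosen with earlier results of these data known; the named genes are the 10 genes, Supt5, the 3 rises and 3 falls with the smallest p of each list, and Ccnd1, Ccne1, Ccne2, Rbl2, Cdkn1a, Cdkn2a, E2f1 and E2f4. Motifs were chosen after seeing the values. Promoter sequences are RefSeq's.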

Additional observations from a re-analysis of the deposited data

How the results depend on the processing

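The number of the 10 genes called was 7 or 8 under every alternative run, with 5 or 6 higher and 2 lower; the gene that was lost was Cdk2. Of 139 values of the 10 genes under the alternatives, 131 kept direction and call, 4 lost the call and 4 turned in sign. The turned values belong to genes that were not called: Cdk4 with library totals alone (0.086), and Cdkn2d with limma-voom (-0.10), without WT replicate 3 (-0.11) and without Spt5-depleted replicate 2 (-0.46), within a range of -0.46 to 0.51 with a library left out; Cdkn2d had no value at a mean of at least 5 CPM. Of 335 values of the other named genes, 315 kept direction and call, 18 lost it, 1 gained it and 1 turned, that of Rbl2 without WT replicate 3 (-0.028; -0.028 to 0.18 with a library left out). The count of listed DREAM genes called, 3, was 1 at an adjusted p under 0.01, and 1 to 3 with a library left out. All genes called numbered 7504, and 5959 to 7914 under the alternatives. The replicate number did not pair the libraries: same-numbered libraries had correlations of deviations of 0.034, -0.051 and -0.032. With the replicate block 7369 genes were called, and Cdk2 was not (0.22, adjusted p = 0.0632), nor were Dyrk1a (adjusted p = 0.0589) and Hdac2 (adjusted p = 0.0642). Dyrk1a also lost its call with DESeq2 size factors, with no filter and with DESeq2's Wald test (adjusted p = 0.0504, 0.0544 and 0.0587), and Tfdp1 with library totals alone (-0.13, adjusted p = 0.246). The causes were not tested. The log2 ratio of Cdk4 to Cdk6 kept its direction with a library left out (-1.63 to -1.19), as did those of Cdkn1b to Cdk2 (0.52 to 0.71), Ccnd3 to Ccnd2 (-0.196 to -0.094), Rb1 to Rbl1 (0.12 to 0.29) and Cdkn2d to Cdkn2c (-1.37 to -0.40). Low counts limit Cdkn2d and Cdkn1c, and why they were low was not tested.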
